A study of Mus musculus with 4 samples.

Results

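The 10 genes described here encode the Myc transcription factors (Myc, Mycn and Mycl), their obligate partner Max, the other proteins that dimerise with Max (Mga, Mxi1, Mxd3, Mxd4 and Mnt) and the Max-like protein Mlx. They were chosen by symbol from the 24026 genes of the expression table, and all 10 were found. RNAseq was performed on untreated F123-ESCs, a male hybrid mouse embryonic stem cell line with maternal S129 (S129S4/SvJae) and paternal CAST (Mus musculus castaneus) chromosomes. Cells grew with LIF on mitotically inactivated feeder fibroblasts, spent at least 2 passages without feeders on gelatin, and were harvested after about 48 h. There is 1 group of 4 libraries, replicates 1 to 4, and no treatment or second cell type, so the comparisons made are between the S129 and CAST alleles of each gene within a library and between genes. The line is a single hybrid in which strain and parent of origin cannot be told apart, and the labels do not say whether the replicates are separate cultures, so p-values measure the spread between these libraries, which may be technical.

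Proteins of this family carry a basic helix-loop-helix leucine zipper. Myc, Mycn and Mycl bind DNA as dimers with Max at the E-box, the sequence CACGTG, and promote growth and proliferation, whereas the Mxd proteins, Mxi1, Mnt and Mga take up Max in dimers that mostly repress. Mlx stands at the centre of a neighbouring network and pairs with Mlxip and Mlxipl, which respond to glucose, and with some Mxd proteins and Mnt. In embryonic stem cells, Myc acts downstream of LIF and STAT3 signalling, and Myc and Mycn together sustain self-renewal.

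The values are RPKM (reads per kilobase of gene length, scaled to the reads of the allele in the library) of each allele in each library. They count only reads that cover a SNP between S129 and CAST. Totals of allele-assigned reads, recovered from the steps between the values, were between 34120416 and 56627972 per library. The labelled cell type was checked against marker genes. All 10 embryonic stem cell markers were measured at 29.5 RPKM (Pou5f1) or more. Of 10 feeder fibroblast markers, 7 had at least 1 RPKM, led by Acta2 with 340 ± 23.0 RPKM and Col1a2 with 166 ± 17.5 RPKM (SD, n = 4 libraries), while the fibroblast markers S100a4, Dcn and Lum were under 1 RPKM. The summed RPKM of the fibroblast list was between 493 and 586 in the 4 libraries. Myc is also active in fibroblasts, and a part of such cells in the values below was not tested. Summed over their lists, primitive endoderm markers had at most 3.49 RPKM, mesoderm markers at most 13.9 RPKM and neural markers at most 85.4 RPKM, of which Nes gave most.

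The E-box was looked for in the promoters of the 10 genes, since their own proteins bind it. RefSeq windows (GRCm38.p6, the assembly of mm10) from 250 bases before to 50 bases after the transcription start were searched for 9 of the 10 genes, all but Myc, in 11 windows. The E-box, which reads the same on both strands, occurred in the windows of Max, Mlx, Mnt and Mxd4, and in 7.15% of 32851 such windows of all genes. The 4 stretches of 60 bases around it are shown 5′ to 3′ on the strand of the gene, with the E-box in capitals. They lie at chr12:76962219-76962278 (Max, minus strand), chr11:101087223-101087282 (Mlx, plus strand), chr11:74830774-74830833 (Mnt, plus strand) and chr5:34187897-34187956 (Mxd4, minus strand).
Max: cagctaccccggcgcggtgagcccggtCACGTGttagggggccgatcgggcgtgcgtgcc
Mlx: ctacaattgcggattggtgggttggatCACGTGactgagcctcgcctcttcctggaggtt
Mnt: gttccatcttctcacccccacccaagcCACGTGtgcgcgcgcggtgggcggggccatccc
Mxd4: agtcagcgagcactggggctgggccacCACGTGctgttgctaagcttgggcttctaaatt
The window of Mycn is shown because this gene had the largest difference between the alleles. It held no E-box but 3 matches to the E2F motifs TTTGGCGC and TTTCGCGC, searched on both strands, of which the first and second overlap. Such a match occurred in 0.813% of the windows of all genes and in none of the other windows of these genes. The window, chr12:12941787-12942086 on the minus strand, is given with the matches in capitals.
Mycn: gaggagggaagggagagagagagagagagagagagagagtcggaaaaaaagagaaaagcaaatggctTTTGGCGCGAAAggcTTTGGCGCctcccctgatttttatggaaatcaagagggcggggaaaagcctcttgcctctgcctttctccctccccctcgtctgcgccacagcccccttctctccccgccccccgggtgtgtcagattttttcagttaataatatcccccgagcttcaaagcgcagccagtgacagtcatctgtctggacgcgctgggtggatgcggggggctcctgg
These are matches of letters in the reference sequence, and the strain sequences were not analysed here.

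Of the 10 genes, 4 had more RNA from the CAST allele, namely Mycn, Myc, Mxd3 and Mlx, and none had more from S129 at adjusted p under 0.05 (limma on the log2(RPKM + 0.1) difference within each library, Benjamini-Hochberg adjustment over 13341 genes). Over all genes tested, 31.3% were called higher on CAST and 31.4% higher on S129, 62.7% in either direction, so a call by itself is common in these cells. These shares include 467 genes of the X chromosome, whose median difference was 6.34 toward S129, whereas the 10 genes lie on autosomes. All 10 genes passed the filter of 1 RPKM summed over both alleles. The median difference, S129 minus CAST, was -0.12 over the 10 genes and -0.0034 over all genes tested. Mycn and Myc also were the genes whose libraries did not overlap between the alleles, which held with CAST above for 22.2% of the genes tested and with S129 above for 23.3%.

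Mycn, the paralogue best known from neuroblastoma and from progenitor cells, lies on chromosome 12 from 12936093 to 12941914 (mm10, minus strand), on an rDNA-chromosome. Its S129 allele had 15.0, 16.4, 17.2 and 14.7 RPKM in replicates 1 to 4. Its CAST allele had 29.7, 34.3, 34.2 and 30.3 RPKM. Every CAST value was above every S129 value, and both alleles were higher in replicates 2 and 3. The difference was -1.01 on the log2 scale (standard error 0.032, adjusted p = 4.37e-05 from limma), a 2.02-fold higher level on CAST in 4 of 4 libraries. From 685 to 2255 reads stood behind each value. The S129 share of the Mycn reads was between 33.4% and 34.4% in the 4 libraries, with 95% Wilson intervals that ran from 31.6% at the lowest to 36.0% at the highest and cover counting error only.

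Myc, the founding member and a direct driver of ribosome and nucleotide synthesis genes, lies on chromosome 15 from 61985391 to 61990374 (plus strand). Its S129 allele had 3.27, 4.27, 4.98 and 4.35 RPKM in replicates 1 to 4. Its CAST allele had 5.11, 6.57, 7.48 and 6.91 RPKM. Replicate 1 was lowest and replicate 3 highest on both alleles, and within each library CAST was higher. The difference was -0.62 (standard error 0.031, adjusted p = 0.000177 from limma), a 1.53-fold higher level on CAST. The difference varied between libraries with an SD of 0.033, less than the 0.124 that counting of its 177 to 413 reads per value gives, and the standard error from counting alone would be 0.062. The S129 share of the Myc reads was between 39.6% and 40.9%. The shift toward CAST was larger for Mycn than for Myc in 4 of 4 libraries, with a Mycn difference minus Myc difference of -0.40 ± 0.038 on the log2 scale (SD, n = 4 libraries). An exact permutation of signs over the libraries, two-sided, gave p = 0.125, and no smaller p can be reached with 4 libraries.

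Mycl, the third paralogue, lies on chromosome 4 from 122995652 to 123002485 (plus strand). Its S129 allele had 19.8, 21.7, 23.1 and 19.1 RPKM in replicates 1 to 4, and its CAST allele had 17.02, 20.9, 20.6 and 10.7 RPKM. S129 was higher in 4 of 4 libraries, but by unequal amounts, from 0.051 in replicate 2 to 0.83 in replicate 4. The mean difference of 0.32 was not larger than this spread (95% interval -0.08 to 0.71, adjusted p = 0.127 from limma). Without replicate 4 it was 0.14 (adjusted p = 0.0811 from limma). The CAST value of replicate 4 rested on 69 reads, and the SD of the difference between libraries, 0.349, was above the 0.164 that counting gives.

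**Figure D1:**
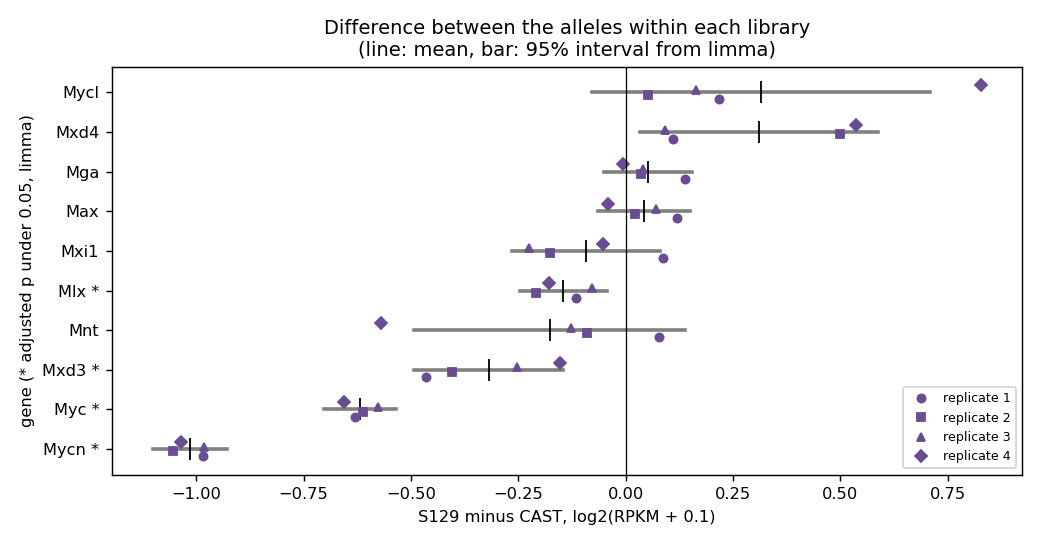
Difference between the alleles (S129 minus CAST, log2(RPKM + 0.1)) for each gene, with 1 point per library, the mean as a line and the 95% interval from limma as a bar. The 4 points of Mycn and of Myc lie close together at -1.01 and -0.62 on average, whereas those of Mycl run from 0.051 to 0.83.

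Max, the common partner, lies on chromosome 12 from 76937269 to 76962201 (minus strand), the same rDNA-chromosome as Mycn. Its S129 allele had 41.9, 40.7, 43.6 and 35.8 RPKM in replicates 1 to 4, and its CAST allele had 38.6, 40.0, 41.5 and 36.8 RPKM. The alleles overlapped, and replicate 4 was lowest on both. An unclassified transcript, Gm47218, is annotated on the same strand over 1319 bp of it. The difference was 0.043 (95% interval -0.06 to 0.15, adjusted p = 0.390 from limma), with S129 higher in 3 of 4 libraries. At 1194 to 2343 reads per value, the interval holds no difference above 0.15 on the log2 scale.

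Mga, which holds a T-box as well as the helix-loop-helix and joins Max to the PRC1.6 repressor complex, had 10.0, 8.98, 10.2 and 8.81 RPKM on S129 and 9.12, 8.76, 9.91 and 8.84 RPKM on CAST in replicates 1 to 4. It lies on chromosome 2 from 119897228 to 119969581 (plus strand) and had the most reads of the 10 genes, up to 3462 per value. Its alleles overlapped and differed by 0.052 (95% interval -0.05 to 0.15, adjusted p = 0.288 from limma).

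The Mxd genes, whose proteins recruit the Sin3 corepressor and are linked to differentiation and cell cycle exit, differed among themselves. Mxd3, which is known for its expression in cycling cells, had 8.01, 7.08, 7.80 and 9.35 RPKM on S129 and 11.1, 9.40, 9.31 and 10.4 RPKM on CAST in replicates 1 to 4. CAST was higher in 4 of 4 libraries, although the highest S129 value, in replicate 4, was above the lowest CAST value. The difference was -0.32 (standard error 0.065, adjusted p = 0.0130 from limma), and without replicate 2 it was -0.29 (adjusted p = 0.0557 from limma). Mxd3 lies on chromosome 13 from 55325168 to 55329823 (minus strand), and its annotated range overlaps that of Prelid1 on the opposite strand by 105 bp.

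Mxd4 had 4.64, 6.39, 4.19 and 4.23 RPKM on S129 and 4.29, 4.49, 3.93 and 2.89 RPKM on CAST in replicates 1 to 4. S129 was higher in 4 of 4 libraries, mainly in replicates 2 and 4, by 0.31 on average (standard error 0.10, adjusted p = 0.0558 from limma). The call depends on the processing, as 4 of the alternatives in the closing section place it under 0.05. Mxd4 lies on chromosome 5 from 34173883 to 34187720 (minus strand) and had the fewest reads, as few as 38 per value. An antisense gene, Gm42846, overlaps it by 1001 bp, and whether reads were counted by strand is not given in the sources used here.

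Mxi1, another antagonist of Myc, lies on chromosome 19, an rDNA-chromosome, from 53310518 to 53375810 (plus strand). It was the lowest of the 10 genes, with 1.08, 1.04, 0.877 and 0.958 RPKM on S129 and 1.01, 1.18, 1.04 and 0.998 RPKM on CAST in replicates 1 to 4. The alleles overlapped and CAST was higher in 3 of 4 libraries, at a difference of -0.092 (95% interval -0.26 to 0.08, adjusted p = 0.272 from limma). From 86 to 160 reads stood behind each value, and the opposite-strand gene AC133451.2 overlaps Mxi1 by 5146 bp.

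Mnt, a broadly expressed repressor that pairs with Max and with Mlx, lies on chromosome 11 from 74830920 to 74845725 (plus strand). It had 3.04, 2.996, 3.26 and 2.63 RPKM on S129 and 2.87, 3.20, 3.57 and 3.95 RPKM on CAST in replicates 1 to 4. S129 minus CAST was -0.57 on the log2 scale in replicate 4, while the other libraries lay between -0.13 and 0.078. The mean difference was -0.18 (95% interval -0.49 to 0.14, adjusted p = 0.250 from limma) and without replicate 4 it was -0.047 (adjusted p = 0.533 from limma). The S129 share of the Mnt reads in replicate 4 was 40.9% (95% Wilson interval 36.8% to 45.2%).

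Mlx lies on the same chromosome from 101087277 to 101092207 (plus strand). Its S129 allele had 27.6, 29.6, 30.3 and 29.3 RPKM in replicates 1 to 4, and its CAST allele had 29.9, 34.3, 32.0 and 33.2 RPKM. CAST was higher in 4 of 4 libraries by a small amount, -0.14 on the log2 scale (standard error 0.038, adjusted p = 0.0271 from limma), which is 1.11-fold. This call did not hold when any 1 library was left out (adjusted p from limma 0.0510 without replicate 3 to 0.102 without replicate 2). It also did not hold when the alleles were not paired by library (no replicate block, adjusted p = 0.134 from limma) or without a filter (adjusted p = 0.0636 from limma). Without division by the allele total the difference was -0.090 (adjusted p = 0.0929 from limma). The S129 total was above the CAST total in each library, so this division moves differences toward CAST. The annotated range of Mlx overlaps that of Psmc3ip on the opposite strand by 385 bp.

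**Figure D2:**
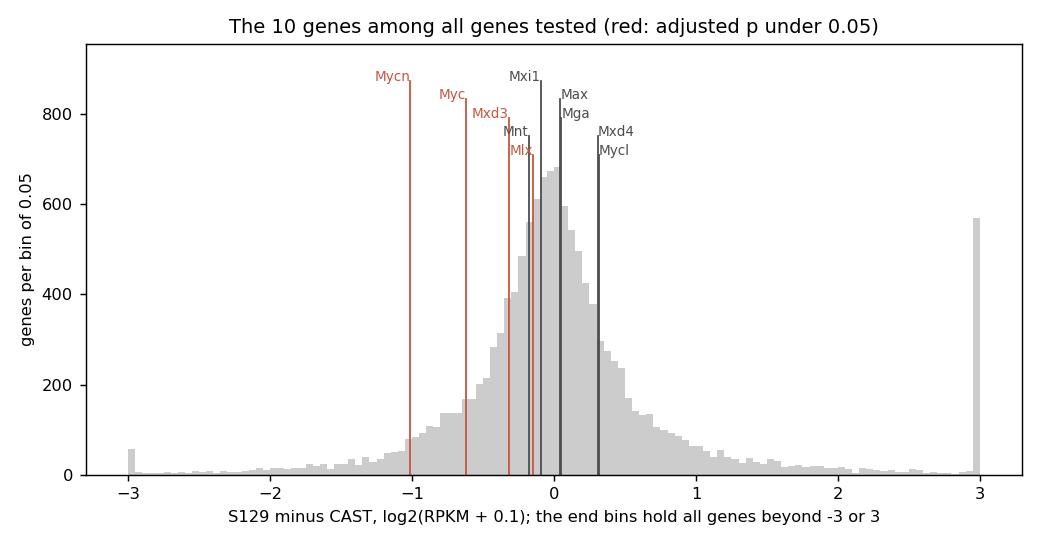
Number of genes (y axis, bins of 0.05) by S129 minus CAST difference on the log2(RPKM + 0.1) scale (x axis) for the 13341 genes tested, with the 10 genes as lines. Mycn at -1.01 and Myc at -0.62 lie in the CAST tail, with 5.71% and 12.7% of the genes tested below them, and the other 8 genes lie within the centre.

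The surroundings of Mycn and Myc were looked at after their values were seen. Within 1 Mb of Mycn, 3 other genes were tested, and all 3 were higher on CAST, each by less than Mycn. Over all genes tested, 31.3% were called higher on CAST. Nbas differed by -0.36 and Fam49a by -0.34 (standard error 0.045 each, adjusted p = 0.00268 and 0.00339 from limma), and Ddx1, the RNA helicase gene next to Mycn, by -0.096 (standard error 0.030, adjusted p = 0.0471 from limma). Within 1 Mb of Myc, 2 genes were tested. Pvt1, the noncoding RNA gene downstream of Myc, was higher on CAST with a difference of -0.22 (standard error 0.039, adjusted p = 0.00805 from limma), at a mean of 36.1 RPKM on S129 and 42.2 RPKM on CAST. H2afy3 differed by -0.29 with a standard error of 0.28 (adjusted p = 0.408 from limma). Such a lean was not particular to Mycn and Myc. Around Mga, which was not called, 10 of 30 genes were higher on CAST and 4 on S129. Around Mnt, also not called, 11 of 30 were higher on CAST and 3 on S129. Around Max, 5 of 18 were higher on CAST and 7 on S129, and around Mxd4 5 of 28 and 7. The median difference over the genes of a chromosome was between -0.074 and 0.0083 on the 8 chromosomes that carry the 10 genes, while it ran from -0.74 on chromosome 3 to 0.69 on chromosome 16 over all 19 autosomes. None of the 10 genes lies on the chromosomes with such shifts, and taking the median of its chromosome out of each difference changed no call among the 10 genes.

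**Figure D3:**
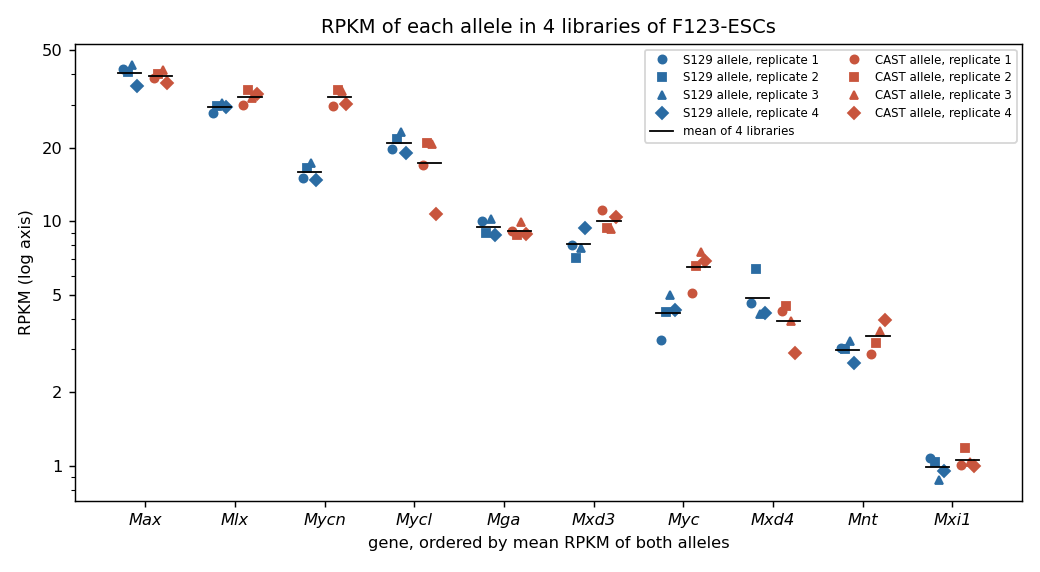
RPKM (log axis) of the S129 allele (blue) and the CAST allele (red) of the 10 genes, ordered by mean level, with 1 symbol per library and the mean as a line. The alleles of Mycn and of Myc are apart in all libraries, those of Max and Mga overlap, and replicate 4 is lowest on the CAST allele of Mycl with 10.7 RPKM.

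As the mean of both alleles, deposited levels ran from 39.9 ± 2.62 RPKM for Max through 30.8 ± 1.38 for Mlx, 24.0 ± 1.80 for Mycn and 19.1 ± 3.21 for Mycl to 1.02 ± 0.068 for Mxi1 (SD, n = 4 libraries). Between these lay Mga with 9.33 ± 0.59, Mxd3 with 9.06 ± 0.79, Myc with 5.37 ± 0.86, Mxd4 with 4.38 ± 0.80 and Mnt with 3.19 ± 0.20 RPKM (SD, n = 4). Neighbours in this order had ranges over libraries that did not overlap, except Mga with Mxd3 and Myc with Mxd4. Mga was above Mxd3 by a mean log2 difference of 0.044 ± 0.17 and in 3 of 4 libraries (exact two-sided permutation of signs, n = 4, p = 0.625), and Myc was above Mxd4 in 2 of 4 libraries by 0.29 ± 0.39 (same permutation test, p = 0.5). For all other neighbours the order was the same in 4 of 4 libraries (exact permutation p = 0.125, the smallest that 4 libraries allow). The order was taken from the means of these same libraries, so the p-values between neighbours are no support for it. Over libraries the level varied by a coefficient of variation of 4.49% (Mlx) to 18.2% (Mxd4), beside a median of 9.66% over all genes tested. Mxd4, Mycl (16.8%) and Myc (15.9%) were above this median.

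This order rests on the gene lengths behind the RPKM, and for Mycl and Mxd4 these are far shorter than the gene. The steps of the values gave a length of 386 bp for Mycl, that of the first transcript listed in GENCODE M21, whereas its annotated exons together span 4038 bp. For Mxd4 the lengths were 787 bp and 8483 bp, and for Max 1942 bp and 3598 bp. For Mxi1 no annotated transcript had the length of 5156 bp that was found by search. With the length of all annotated exons, Mycl came to 1.83 ± 0.31 RPKM and Mxd4 to 0.406 ± 0.074 RPKM (SD, n = 4), so Mycl moved from the fourth place to the eighth and Mxd4 from the eighth to the last. Mlx with 28.1 ± 1.26 RPKM then stood above Max with 21.5 ± 1.42 and Mycn with 19.5 ± 1.46 RPKM (SD, n = 4), and the ranges of Max and Mycn overlapped. Which exons the reads were counted over is not given in the sources used here, and the number of SNPs in a gene bears on its RPKM as well, so these orders are those of the deposited reads and not of transcript numbers. Differences between alleles of one gene do not depend on its length apart from the pseudocount.

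**Figure D4:**
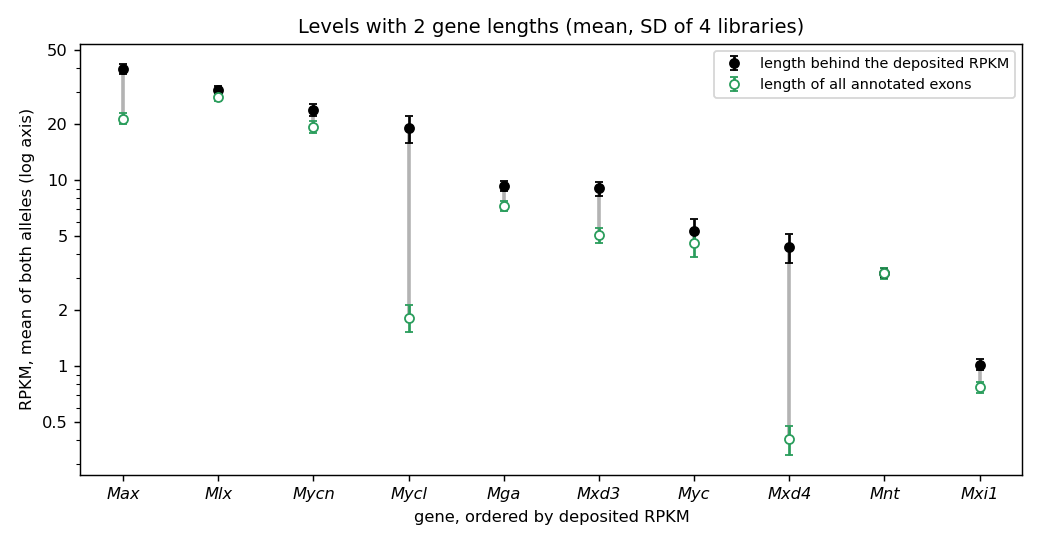
Level of each gene as the mean of both alleles (RPKM, log axis) with the length behind the deposited values (black) and with the length of all annotated exons (green, open), as mean and SD of 4 libraries. Mycl falls from 19.1 to 1.83 RPKM and Mxd4 from 4.38 to 0.406 RPKM, while Mnt stays at 3.19 and 3.16 RPKM.

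Among the 3 Myc paralogues, Mycn made up 49.6% ± 2.0 of the summed RPKM, Mycl 39.3% ± 3.1 and Myc 11.1% ± 1.6 (SD, n = 4 libraries). With the length of all annotated exons, Mycn made up 75.2% ± 1.5, Myc 17.8% ± 2.0 and Mycl 7.04% ± 0.83 (SD, n = 4). Mycn was the largest of the 3 on either length in the mean of both alleles, but on the S129 allele with the deposited lengths Mycl was, with 51.0% ± 0.85 beside 38.7% ± 0.54 for Mycn (SD, n = 4). The share of Mycn was lower on S129 than on CAST in 4 of 4 libraries, with S129 minus CAST at -19.03 ± 3.8 percentage points on the deposited lengths and -8.64 ± 0.74 with all exons (SD, n = 4, exact two-sided permutation of signs, p = 0.125 for both). This direction follows from the allele differences of the 3 paralogues given above and is no separate result.

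The summed RPKM of the 8 genes whose proteins pair with Max (Myc, Mycn, Mycl, Mga, Mxi1, Mxd3, Mxd4 and Mnt) was 1.89 ± 0.065 times that of Max (SD, n = 4), or 0.92 ± 0.050 on the log2 scale, and above Max in 4 of 4 libraries. With all exons it was 1.98 ± 0.10 times (SD, n = 4). On the log2 scale the ratio was lower on S129 than on CAST in 4 of 4 libraries, with S129 minus CAST at -0.35 ± 0.11 on the deposited lengths and -0.59 ± 0.049 with all exons (SD, n = 4, exact two-sided permutation of signs, p = 0.125 for both). Mycn is the largest part of the sum on CAST, so this direction follows from the allele differences given above and is no separate result. With all exons the 3 paralogues together had 18.5 ± 1.63 RPKM on S129, below Max with 21.9 ± 1.83, and 33.3 ± 2.93 RPKM on CAST, above Max with 21.2 ± 1.09 (SD, n = 4 each). With the deposited lengths the sums were 41.0 ± 3.55 RPKM on S129 and 55.9 ± 7.20 RPKM on CAST, beside 40.5 ± 3.38 and 39.2 ± 2.03 RPKM for Max (SD, n = 4 each). Whether the S129 sum lay below Max thus depended on the lengths. As with the levels above, RPKM of different genes are not transcript numbers, so these sums do not give the balance of partners and Max in a cell.

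**Figure D5:**
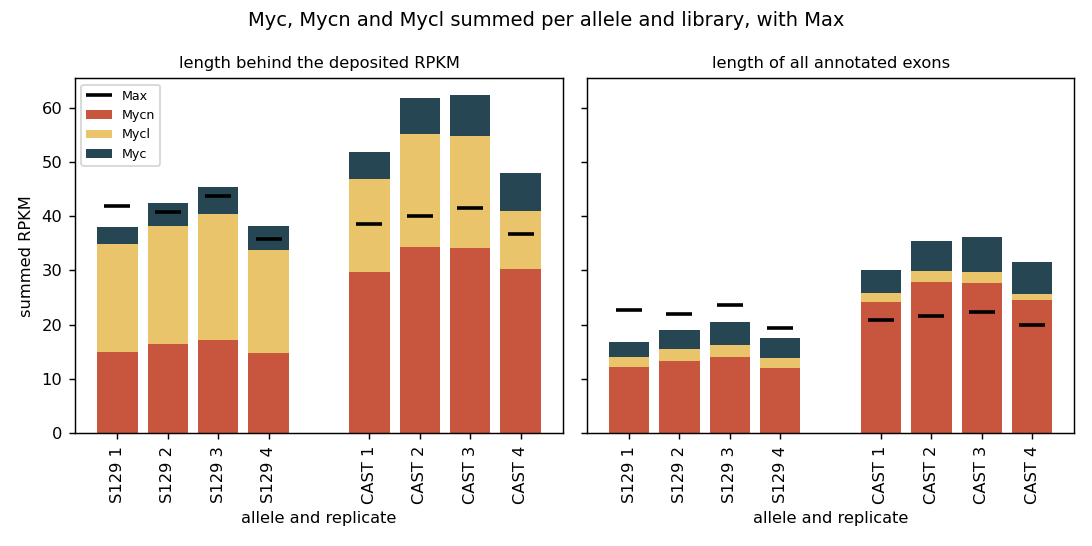
Summed RPKM of Mycn, Mycl and Myc (stacked bars) for each allele and library, with the RPKM of Max as a black line, on the deposited lengths (left) and the length of all annotated exons (right). The CAST bars are higher than the S129 bars in every library, mainly through Mycn, and the share of Mycl shrinks on the right.

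Of the 5 other genes of the network, Mlxipl and Bmyc differed between the alleles. Mlxipl, which encodes the glucose-responsive Mlx partner ChREBP, had 4.31 ± 0.68 RPKM on S129 and 9.05 ± 0.79 RPKM on CAST (SD, n = 4), a difference of -1.06 (standard error 0.13, adjusted p = 0.00243 from limma, CAST higher in 4 of 4 libraries). Its relative Mlxip had 4.88 ± 0.51 RPKM (SD, n = 4) and a difference of 0.0039 (standard error 0.073, adjusted p = 0.967 from limma). Bmyc, a short relative of Myc without the helix-loop-helix, was higher on S129 in 4 of 4 libraries by 0.46 (standard error 0.13, adjusted p = 0.0374 from limma) at 1.45 ± 0.54 RPKM (SD, n = 4). Mxd1 had 1.26 ± 0.16 RPKM (SD, n = 4) with a difference of -0.043 (standard error 0.11, adjusted p = 0.767 from limma), and the retrogene Mycs did not pass the filter.

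In all, 88 genes of the lists around the 10 genes were tested, of which 25 (28.4%) had more RNA from S129 and 38 (43.2%) more from CAST, beside 31.4% and 31.3% of all genes tested. Their median difference was -0.10. The counts of the single lists below are to be read beside the same shares of all genes tested. Without pairing the alleles by library (no replicate block), 17 were called higher on S129 and 22 on CAST. The shares of all genes called without the pairing are not given here, so these counts say nothing particular about the listed genes. RNA of X-linked genes comes from S129 in this male line, and Hcfc1, Huwe1 and Rbbp7 are such genes, with CAST levels of at most 0.207 RPKM.

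Among 14 cofactors through which Myc activates transcription, 3 were higher on S129 and 5 on CAST. Wdr5, the histone methyltransferase subunit that recruits Myc, had 120.1 ± 12.1 RPKM, Ruvbl2, a helicase of chromatin complexes, 118 ± 10.4 RPKM, and Trrap, the scaffold of histone acetyltransferases, 77.3 ± 11.1 RPKM (SD, n = 4). Trrap was higher on CAST with a difference of -0.41 (standard error 0.037, adjusted p = 0.000942 from limma) and Ccnt1, the cyclin of the elongation kinase, differed by -0.29 (standard error 0.032). Its kinase Cdk9 was higher on S129 by 0.52 (standard error 0.044, adjusted p = 0.000755 from limma).

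Of 13 genes listed for the turnover of Myc protein, 12 were in the table and 11 tested, with 5 higher on each allele. Fbxw7, the ubiquitin ligase subunit that marks phosphorylated Myc, had 8.57 ± 0.70 RPKM on S129 and 16.3 ± 0.71 RPKM on CAST, and Gsk3b, the kinase that prepares this mark, had 1.66 ± 0.17 RPKM on S129 and 0.839 ± 0.036 RPKM on CAST (SD, n = 4). They lie on chromosomes 3 and 16, whose medians were shifted in the same directions. Usp28, the deubiquitinase that opposes Fbxw7, was the highest of the list with 243 ± 23.4 RPKM (SD, n = 4) and differed by -0.65 (standard error 0.036, adjusted p = 0.000223 from limma). Btrc, another ubiquitin ligase subunit, differed by -0.93 (standard error 0.033, adjusted p = 6.11e-05 from limma) and Huwe1, a ligase on the X chromosome, had 246 ± 21.3 RPKM on S129.

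Of the 15 genes listed for PRC1.6, the complex that Mga and Max bring to DNA, 5 were higher on each allele. Cbx3 had 201 ± 31.2 RPKM, Wdr5 is given above, and Hdac1 had 110.5 ± 14.3 RPKM (SD, n = 4). Rybp was higher on S129 by 1.18 (standard error 0.077) and Rnf2, the ubiquitin ligase of the complex, by 0.51 (standard error 0.056), while Ehmt2, an H3K9 methyltransferase, differed by -0.50 (standard error 0.036) and Cbx3 by -0.36 (standard error 0.038). Rybp and Cbx3 lie on chromosome 6, whose median difference was 0.19. The 8 germline genes that PRC1.6 is known to repress were all measured at 1.10 RPKM (Mael) or more, and 3 were higher on S129 and 4 on CAST. Dazl had 53.0 ± 7.46 RPKM, Sycp3 17.6 ± 3.01 RPKM and Ddx4 11.0 ± 0.83 RPKM (SD, n = 4). Mael (difference 1.36, standard error 0.24) and Sycp3 (1.26, standard error 0.043) were higher on S129, and Stk31 (-0.94, standard error 0.10) and Tdrd1 (-0.75, standard error 0.094) on CAST.

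Of the 15 genes listed for the Sin3 corepressor of the Mxd proteins and Mnt, 4 were higher on S129 and 6 on CAST. Sin3a, the scaffold, had 138 ± 8.62 RPKM and the histone chaperone Rbbp4 134 ± 19.2 RPKM (SD, n = 4), with small differences of -0.18 (standard error 0.045) and -0.13 (standard error 0.032). Sap18 (-0.94, standard error 0.077) and Ing1 (-0.70, standard error 0.031) were higher on CAST and Ncor1 (0.32, standard error 0.031) on S129, as was the X-linked Rbbp7, which was listed at 0 on CAST. Ing1 lies on chromosome 8, whose median difference was -0.25.

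Of 24 genes known as targets of Myc, 5 were higher on S129 and 13 on CAST, with a median difference of -0.15. Over all genes tested, 31.4% were higher on S129 and 31.3% on CAST, with a median difference of -0.0034. Whether the allele differences of these targets bear any relation to those of Myc and Mycn was not tested. The highest were the mitochondrial chaperonin gene Hspe1 with 3763 ± 770 RPKM, the nucleolar protein gene Npm1 with 1585 ± 100.1 RPKM and the lactate dehydrogenase gene Ldha with 1052 ± 71.2 RPKM (SD, n = 4). Npm1 was higher on S129 by 0.30 (standard error 0.028), as was the translation factor gene Eif4a1 by 4.02 (standard error 0.030), with 570 ± 103 RPKM on S129 and 34.9 ± 5.98 RPKM on CAST (SD, n = 4). The cap-binding protein gene Eif4e (-1.03, standard error 0.083) and the nucleoside kinase gene Nme1 (-0.56, standard error 0.030) were higher on CAST, and Eif4e lies on chromosome 3. Several of these genes, among them Npm1, Ldha, Hspe1, Eif4a1 and Eif4e, have processed copies elsewhere in the genome, which can make allele values uncertain. Whether such copies bear on the values here was not tested.

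The genes closest to the Myc paralogues and Max over the 8 allele columns, by Euclidean distance on log2(RPKM + 0.1), included Ublcp1 (0.232) for Mycn, Col1a1 (0.344) and Cdk10 (0.427) for Myc, Dync1li2 (0.444) and Zc3h15 (0.466) for Mycl, and Lman1 (0.169) and Pithd1 (0.184) for Max. The distance rests on 4 libraries of 1 condition and reflects level and allele difference. Ublcp1, for example, had a mean of 16.04 RPKM on S129 and 32.7 RPKM on CAST, beside 15.8 and 32.1 RPKM for Mycn.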

How the data were processed

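RNA of 4 libraries was polyA-enriched and sequenced with the stranded TruSeq kit and paired reads of 150 bp. The authors removed rRNA reads, trimmed with Trimmomatic 0.40, aligned with STAR to mm10 masked at SNPs, split reads by SNPsplit, and deposited RPKM per gene, allele and library. They also deposited the mean RPKM of each allele and its log10(RPKM+1), which were not used. The counting program is not given in the sources used here. The number in a column name gave its library, and the first S129 column, written with a minus sign, was read as replicate 1.

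Totals of the reads of each allele (16716721 to 28772351) and gene lengths were recovered from the steps between values with GENCODE M21 (23995 of 24026 identifiers matched). With a tolerance of 0.02 reads plus 2e-07 of the number, 94.55% of the genes above 0 came out whole on an annotated length or, for listed genes, on a searched length. Alleles were compared with limma 3.58.1 (R 4.3.3) on log2(RPKM+0.1) differences within each library, a scale that understates differences of low values, for genes with at least 1 RPKM summed over both alleles. The alleles were paired because each library gave the reads of both. Over 12731 genes, deviations of same-library columns correlated at 0.170 to 0.301 and those of different libraries at -0.201 to 0.155. Single values were compared by the exact two-sided sign-flip permutation test over libraries. The recovery of totals and the limma fit were also run on simulated data, and the outcome is not given here. In the simulation for limma only a small part of the genes was changed, unlike in these data. Wilson intervals of read shares cover counting error only, and the intervals of allele differences come from limma and rest on the spread between libraries.

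The 10 genes and the gene lists were chosen with earlier results of these data known. Named genes are the 10 genes, 5 related genes, from each other list the 3 highest genes and the 2 with the largest called difference in each direction, and for Myc, Mycn, Mycl and Max the 2 nearest genes, of which 1 is not reported here. The genes beside Mycn and Myc were chosen after their values were seen. Cip2a, 1 of the listed genes, was not analysed here. Of the alternatives, the one with all exons but without Mycl and Mxd4 was added after seeing the data.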

Additional observations from a re-analysis of the deposited data

How the results depend on the processing

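Of 109 allele differences of the 10 genes under alternatives, none changed direction and 97 kept their side of the threshold. Mycn, Myc, Mxi1, Max, Mga, Mnt and Mycl kept their side in every alternative run, and Mxi1 could not be tested with the filter at 5 RPKM. No gene was called higher on S129 in the reported fit, and 1, Mxd4, was with a pseudocount of 1, a filter at 5 RPKM, no division by the allele total, or a variance trend (adjusted p = 0.0366 to 0.0419 from limma). The other alternatives for Mxd4 gave an adjusted p of up to 0.177. The number higher on CAST, 4, was 2 to 3 when a library was left out, and 2 without replicate 2, since Mlx and Mxd3 were lost. It was 3 without a filter, without division by the allele total and without pairing the alleles by library (no replicate block), since Mlx was lost. Without the pairing, 22 in place of 38 genes of the surrounding lists were called higher on CAST and 17 in place of 25 on S129, and the pairing changed no other call of the 10 genes. The shares of all genes called under the alternatives are not given here, so these changes in number are not particular to these genes. The cause of these changes was not tested.

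The share of Mycn among the paralogues, 49.6%, was 75.2% with the length of all exons, 38.7% on the S129 allele alone and 57.7% on the CAST allele alone. The log2 ratio of the Max partners to Max, 0.92, was 0.99 with all exons, 0.74 on S129 alone, 1.09 on CAST alone, 0.28 with only Myc, Mycn and Mycl summed and 0.73 without Mga. With all exons and without Mycl and Mxd4, an alternative chosen after seeing the data, it was 0.91. When a library was left out the share was 48.7% to 50.2% and the ratio 0.90 to 0.94. Depth limits Mxd4, Mxi1 and Mycl most, with as few as 38, 86 and 69 reads per value. Dixon's criterion found no library apart from the others in 42 quantities.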
